A study of Mus musculus with 6 samples.

Results

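Of the 19937 genes measured in gonadal white adipose tissue (GWAT), 38 formed a list of lysosomal genes: soluble hydrolases and their activators, membrane proteins of the lysosome, and the transcription factors *Tfeb* and *Tfe3*. The list was chosen by gene name, without the proteases and the proton pump, and with earlier results of these data known. Each gene was read from the probeset with 1 symbol and the highest mean. All 38 genes had such a probeset, and *Arsb* alone had 2 of them. *Tpp1* encodes a peptidase and was kept because its loss causes a ceroid storage disease, and *Gusb*, often used as a reference gene in quantitative PCR, is also in the list.

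RNA came from GWAT of male mice on a chow diet at 4 months, on a C57BL/6J background by the study's methods. The groups were *ob/ob*, which lack leptin, and *ob/ob/Fsp27*-/-, which lack leptin and Fsp27 (gene *Cidec*), a protein of the lipid droplet surface in adipocytes. Each group had 3 GeneChip Mouse Gene 1.0 ST arrays, and each array carried a pool of RNA from 3 mice by the study's methods, whereas the labels do not mention pooling. Leptin was absent from both groups, the *Fsp27* allele was a null of the whole animal and not of adipocytes alone, and n counts arrays, so the spread from mouse to mouse cannot be read.

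The lysosome is the acidic compartment in which cells break down glycans, lipids, proteins and nucleic acids brought in by endocytosis, phagocytosis or autophagy. Its enzymes are sorted there from the Golgi, and inherited loss of single enzymes causes storage diseases in which the undigested substrate fills the cell. In obese adipose tissue, macrophages around dying adipocytes take up lipid into lysosomes and hydrolyse it with acid lipase. Transcription factors of the MiT/TFE family (TFEB, TFE3, MITF and TFEC) bind E-boxes upstream of many lysosomal genes.

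The promoters of these genes were searched for that motif, because it links the hydrolases and the membrane proteins to the factors in the list. RefSeq promoters (GRCm38.p6) were at hand for 34 of the 38 genes, and *Asah1*, *Galns*, *Npc1* and *Aga* had no entry. The motif CACGTG, which reads the same on both strands, lay within 250 bases before the start in 9 of the 34 genes (26.5%). It lay there in 8.11% of 15613 measured genes and in 6.86% of 27025 genes with an entry. The 9 stretches that hold it are given 5′ to 3′ on the strand of the gene, with CACGTG in capitals.
*Gla*, chrX:134601170-134601255, minus strand: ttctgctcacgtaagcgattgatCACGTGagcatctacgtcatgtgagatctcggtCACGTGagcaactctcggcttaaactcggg
*Glb1*, chr9:114401006-114401059, plus strand: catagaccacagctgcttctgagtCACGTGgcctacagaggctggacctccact
*Cln3*, chr7:126583328-126583409, minus strand: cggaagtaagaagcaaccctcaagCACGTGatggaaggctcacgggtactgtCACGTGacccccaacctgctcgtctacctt
*Naglu*, chr11:101069997-101070050, plus strand: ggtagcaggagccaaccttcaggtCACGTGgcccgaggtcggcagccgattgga
*Sgsh*, chr11:119355511-119355563, minus strand: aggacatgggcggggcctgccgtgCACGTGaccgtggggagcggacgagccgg
*Gaa*, chr11:119267799-119267852, plus strand: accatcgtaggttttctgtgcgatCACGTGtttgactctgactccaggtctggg
*Arsa*, chr15:89477425-89477464, minus strand: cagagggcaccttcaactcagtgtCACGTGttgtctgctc
*Lamp1*, chr8:13159076-13159160, plus strand: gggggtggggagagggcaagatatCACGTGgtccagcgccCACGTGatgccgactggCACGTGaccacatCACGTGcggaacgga
*Mcoln1*, chr8:3500424-3500503, plus strand: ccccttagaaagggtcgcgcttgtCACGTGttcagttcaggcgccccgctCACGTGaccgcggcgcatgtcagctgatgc

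*Lamp1* held 4 copies, *Gla*, *Cln3* and *Mcoln1* held 2 each, and the other genes held 1. In *Cln3* the copies belong to the downstream one of its 2 annotated starts. The longer form GTCACGTG, read on both strands, was present in 8 of the 34 genes (23.5%) against 2.88% of measured genes, and the palindrome TCACGTGA in 3 (8.82%) against 1.25%. Both longer forms contain CACGTG and are counted with it. The median GC content was 56.2% in the promoters of the lysosomal genes and 56.8% in those of all measured genes. A match is a stretch of letters and was not tested as a binding site.

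Expression of the lysosomal genes was lower in GWAT of *ob/ob/Fsp27*-/- mice than in that of *ob/ob* mice for 24 of the 38 genes (63.2%), against 10.8% of all genes. *Smpd1*, which encodes acid sphingomyelinase, was the single gene that was higher, against 9.58% of all genes, and 13 genes were not called. A gene was called where limma gave an adjusted p under 0.05 and the change reached 0.5 on the log2 scale in either direction. All changes are given as *ob/ob/Fsp27*-/- minus *ob/ob* on the log2 scale. The largest decreases were in *Gla* (−2.77), *Gusb* (−2.14) and *Lipa* (−2.09), and 11 genes had a change of −1 or lower.

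The median log2 fold change of the list was −0.74, with quartiles of −1.04 and −0.28, beside a median of 0.06 over all genes. Of the 38 values, 36 were below 0. The arrays of the genotypes did not overlap in 28 genes that were lower in *ob/ob/Fsp27*-/- mice, against 20.7% of all genes, and in 2 that were higher, *Smpd1* and *Gm2a*, against 25.3% of all genes. They overlapped in the other 8. *Sgsh*, *Lamp2* and *Tfeb* had an adjusted p under 0.05 and a change smaller than 0.5. At an unadjusted p under 0.05, 28 genes were lower in limma, against 19.2% of all genes, and 2 were higher, against 20.9%.

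**Figure D1:**
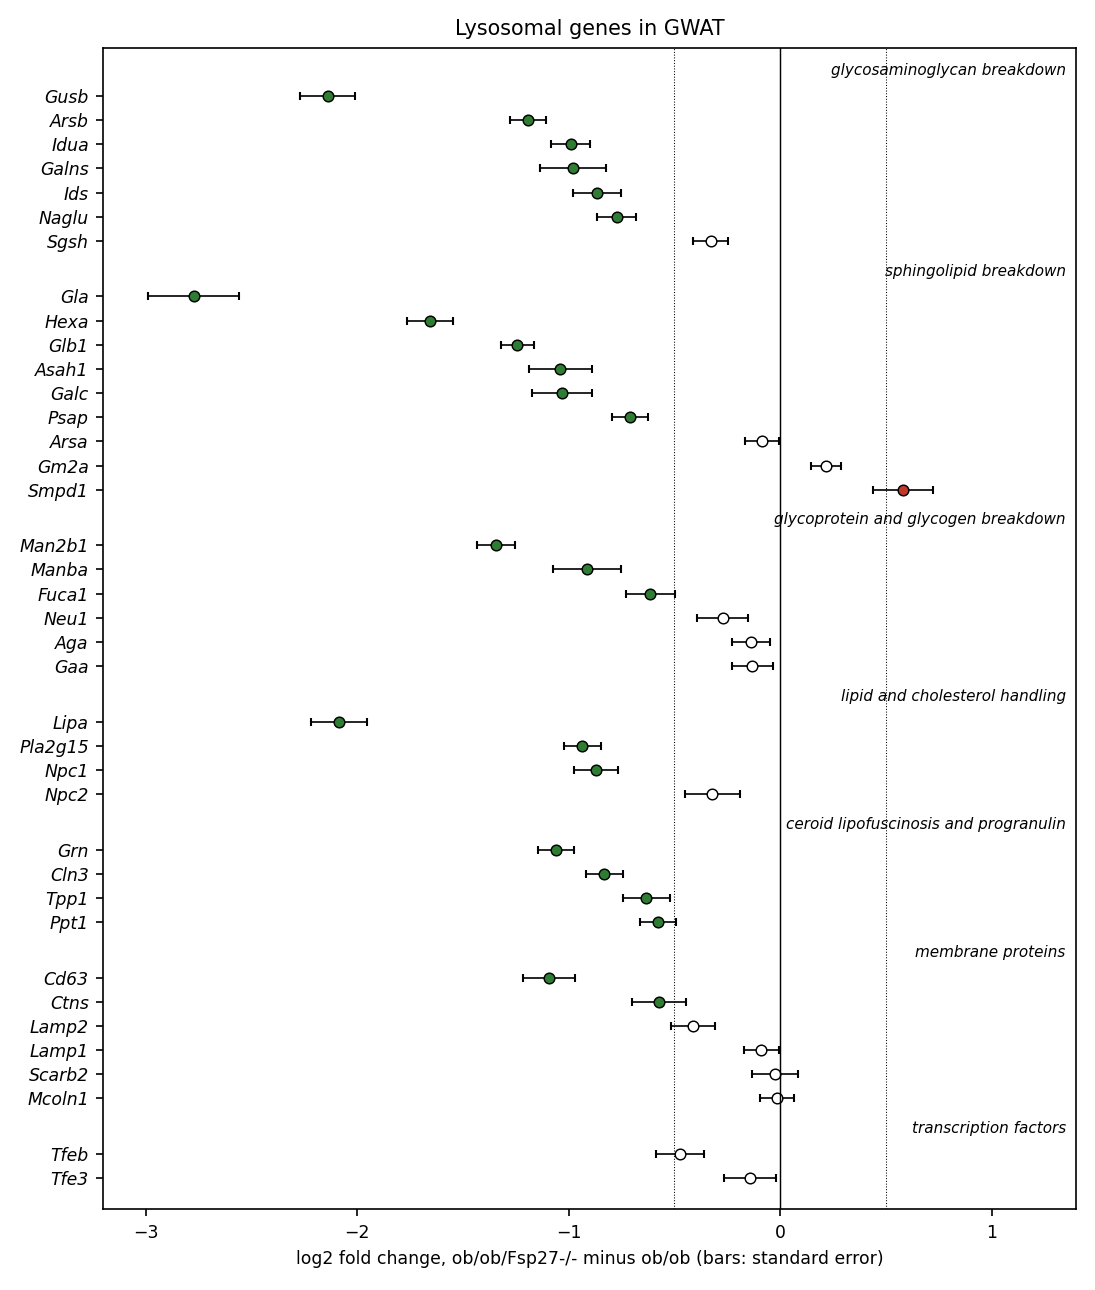
Log2 fold change of each lysosomal gene, *ob/ob/Fsp27*-/- minus *ob/ob*, with bars for the standard error (SE) in limma (3 arrays per genotype), by role of the encoded protein. Green points were called lower, the red point higher and open points were not called, and dotted lines mark −0.5 and 0.5. Values run from −2.77 for *Gla* to 0.58 for *Smpd1*, and the median is −0.74.

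The glycosaminoglycan enzymes break down, inside the lysosome, heparan, dermatan, keratan and chondroitin sulphate that come from the cell surface and matrix. Expression was lower for 6 of the 7, and the median change was −0.98. *Gusb* (probeset 10534102), the gene of β-glucuronidase, had log2 values of 10.55, 10.44 and 10.17 on the *ob/ob* arrays and 8.09, 8.40 and 8.26 on the *ob/ob/Fsp27*-/- arrays. The genotypes were far apart, with a fold difference of 4.41 (log2 fold change −2.14, standard error, SE, 0.13, adjusted p = 8.06e-05 in limma). *Arsb*, the sulphatase of dermatan sulphate, measured 9.52, 9.72 and 9.68 against 8.49, 8.48 and 8.38. Its change of −1.19 (SE 0.086, adjusted p = 0.000149 in limma) was repeated by its other probeset, at −1.21.

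*Idua*, whose product removes iduronic acid, measured 8.83, 8.65 and 8.63 on the *ob/ob* arrays and 7.62, 7.79 and 7.73 on the *ob/ob/Fsp27*-/- arrays. The arrays were apart and the change was −0.99 (SE 0.091, adjusted p = 0.000361 in limma). *Galns*, the gene of the keratan sulphate sulphatase, measured 8.48, 8.22 and 8.04 against 7.44, 7.00 and 7.37. The spread was wider here, and the change of −0.98 had a SE of 0.16 (adjusted p = 0.00358 in limma). *Ids* (iduronate sulphatase) and *Naglu* (an N-acetylglucosaminidase of heparan sulphate) fell by 0.87 and 0.77. *Sgsh*, which encodes heparan N-sulphatase, was not called, at −0.33 (95% interval −0.53 to −0.13).

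The sphingolipid group holds the enzymes that take glycolipids and sphingomyelin apart step by step, and the activator proteins that lift these lipids from membranes. It held both ends of the range of changes: 6 of the 9 genes were lower and 1 was higher. *Gla* (probeset 10606714), the gene of α-galactosidase A, measured 10.36, 10.04 and 9.47 on the *ob/ob* arrays and 7.19, 7.03 and 7.32 on the *ob/ob/Fsp27*-/- arrays. It changed by −2.77 (SE 0.22, adjusted p = 0.000192 in limma), a fold difference of 6.84. Its SD of 0.45 across the *ob/ob* arrays was the largest of the 38 genes, and the lowest *ob/ob* array was still above the highest *ob/ob/Fsp27*-/- array.

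*Hexa*, which encodes the α subunit of β-hexosaminidase, measured 11.22, 11.04 and 11.00 against 9.32, 9.61 and 9.36. *Glb1*, the gene of β-galactosidase, measured 9.49, 9.40 and 9.38 against 8.24, 8.11 and 8.20. Arrays were apart in both, with changes of −1.66 (SE 0.11) and −1.24 (SE 0.079), and adjusted p-values of 0.000109 and 9.73e-05 in limma. *Asah1*, which encodes acid ceramidase, measured 11.35, 11.26 and 10.89 against 10.18, 9.91 and 10.28, and the change was −1.04 (SE 0.15, adjusted p = 0.00234 in limma). *Galc* (galactosylceramidase) fell by 1.03, and *Psap*, the precursor of the saposin activators, by 0.71.

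*Smpd1* (probeset 10555946) went the other way. It measured 9.42, 9.78 and 9.97 on the *ob/ob* arrays and 10.25, 10.31 and 10.35 on the *ob/ob/Fsp27*-/- arrays, a change of 0.58 (SE 0.14, adjusted p = 0.0197 in limma). The call rests on single arrays: without *ob/ob* array 1 the change was 0.43, and the adjusted p in limma was 0.0539 without *ob/ob* array 2. It was 0.0649 without array 2 of the double-deficient mice and 0.0612 without their array 3. *Gm2a*, the GM2 activator, had narrow and separate ranges, 11.46 to 11.49 against 11.63 to 11.74. Its change of 0.22 was not called (95% interval 0.05 to 0.39, adjusted p = 0.0621 in limma). *Arsa*, which encodes arylsulphatase A, was not called either, at −0.09 (95% interval −0.27 to 0.10).

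**Figure D2:**
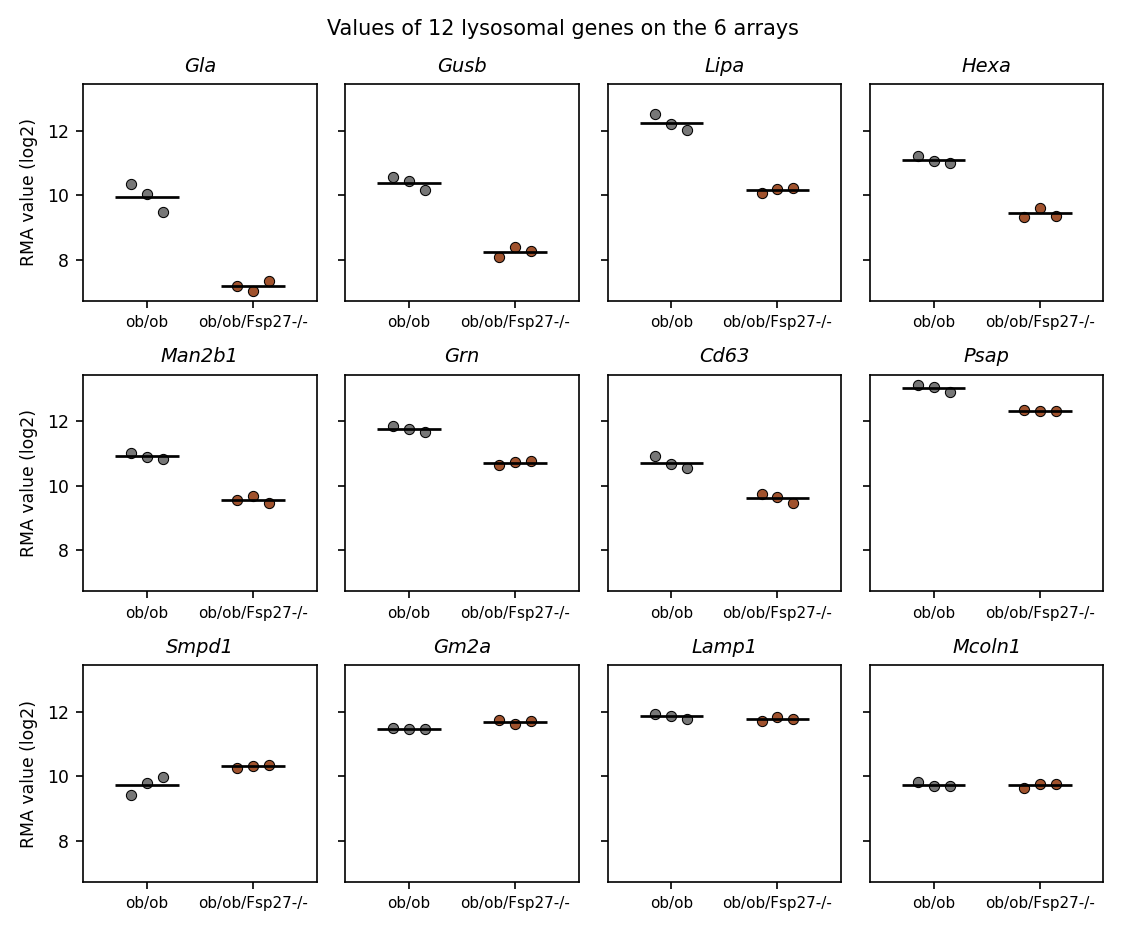
RMA log2 values of 12 lysosomal genes on each of the 6 arrays, with *ob/ob* in grey, *ob/ob/Fsp27*-/- in brown and bars at the mean of 3 arrays. The genotypes are apart in the top 8 panels, where *ob/ob* is higher, and in *Smpd1* and *Gm2a*, where it is lower, whereas the arrays overlap in *Lamp1* and *Mcoln1*.

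Among the enzymes of glycoproteins and glycogen, expression was lower for the mannosidases and the fucosidase, 3 of 6 genes, and the other 3 were not called. *Man2b1*, the gene of the acid α-mannosidase, measured 11.01, 10.90 and 10.82 on the *ob/ob* arrays and 9.55, 9.67 and 9.47 on the *ob/ob/Fsp27*-/- arrays. The arrays were apart, with a change of −1.34 (SE 0.091, adjusted p = 0.000123 in limma). *Manba* (β-mannosidase) measured 8.69, 8.67 and 8.39 against 8.00, 7.57 and 7.45, and *Fuca1* (α-fucosidase) measured 9.96, 9.99 and 9.79 against 9.51, 9.18 and 9.20. They did not overlap between genotypes and changed by −0.91 (SE 0.16) and −0.61 (SE 0.11), with adjusted p-values of 0.00537 and 0.00679 in limma.

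*Neu1*, the gene of the lysosomal sialidase, measured 7.93, 7.86 and 7.88 against 7.36, 7.70 and 7.79. *ob/ob/Fsp27*-/- array 1 was far under the other 2, and the change of −0.27 was not called (95% interval −0.56 to 0.01, adjusted p = 0.142 in limma). The sialidase works in a complex with β-galactosidase and cathepsin A, and the other genes of that complex were called lower, *Glb1* at −1.24 and *Ctsa* at −1.25, the latter named here after its value was seen. *Aga*, the aspartylglucosaminidase gene, was at −0.14 (95% interval −0.35 to 0.07), and *Gaa*, whose product hydrolyses glycogen, was at −0.13 (95% interval −0.36 to 0.09).

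Genes of lipid hydrolysis and cholesterol export were lower for 3 of 4. *Lipa* (probeset 10467139) encodes lysosomal acid lipase, which frees cholesterol and fatty acids from esters and triglyceride. It measured 12.50, 12.21 and 12.01 on the *ob/ob* arrays and 10.05, 10.18 and 10.22 on the *ob/ob/Fsp27*-/- arrays, a fold difference of 4.25 with no overlap (log2 fold change −2.09, SE 0.13, adjusted p = 9.61e-05 in limma). *Pla2g15*, the lysosomal phospholipase A2 gene, measured 9.49, 9.43 and 9.66 against 8.58, 8.62 and 8.57, a change of −0.94 (SE 0.085, adjusted p = 0.000353 in limma).

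*Npc1* and *Npc2* encode the membrane and the soluble partner that move cholesterol out of the lysosome. *Npc1* measured 10.97, 10.85 and 10.62 against 9.97, 9.95 and 9.92, with a change of −0.87 (SE 0.10, adjusted p = 0.00105 in limma). *Npc2* measured 10.76, 10.96 and 11.11 against 10.43, 10.79 and 10.65, which overlap, and was not called at −0.32 (95% interval −0.62 to −0.02, adjusted p = 0.109 in limma). The difference between the changes of the 2 genes was not tested.

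All 4 genes of the ceroid lipofuscinosis and progranulin group were lower. *Grn*, the gene of progranulin, measured 11.86, 11.77 and 11.68 on the *ob/ob* arrays and 10.64, 10.72 and 10.77 on the *ob/ob/Fsp27*-/- arrays, a change of −1.06 (SE 0.083, adjusted p = 0.000205 in limma). *Cln3*, which encodes a membrane protein lost in juvenile Batten disease, measured 9.00, 8.89 and 8.89 against 7.97, 8.17 and 8.15, a change of −0.83 (SE 0.088, adjusted p = 0.000641 in limma). The arrays of both genes were well apart. *Tpp1* (tripeptidyl peptidase) measured 10.76, 10.89 and 10.76 against 9.99, 10.14 and 10.37, and *Ppt1* (palmitoyl-protein thioesterase) 10.47, 10.47 and 10.33 against 9.90, 9.75 and 9.88. They were lower by smaller amounts, −0.63 and −0.58, with adjusted p-values of 0.00536 and 0.00256 in limma.

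Of the 6 genes in the membrane protein group 2 were called lower, and the median change was −0.25. *Npc1* (−0.87) and *Cln3* (−0.83) also encode membrane proteins but were counted in other groups, and both were lower. *Cd63*, a tetraspanin of late endosomes and secretory vesicles, measured 10.92, 10.67 and 10.55 on the *ob/ob* arrays and 9.75, 9.65 and 9.46 on the *ob/ob/Fsp27*-/- arrays, a change of −1.09 (SE 0.12, adjusted p = 0.000849 in limma). *Ctns*, the cystine exporter gene, measured 8.91, 8.90 and 8.81 against 8.11, 8.23 and 8.58. Arrays were apart and the change was −0.57 (SE 0.13, adjusted p = 0.0143 in limma), but it was not called without array 1 (−0.47) or array 2 (adjusted p = 0.0554 in limma) of the double-deficient mice, or without *ob/ob* array 2 (adjusted p = 0.0540 in limma).

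*Lamp2* and *Lamp1* encode the most abundant glycoproteins of the lysosomal membrane. *Lamp2* measured 11.80, 11.72 and 11.53 against 11.28, 11.16 and 11.38, a change of −0.41 (adjusted p = 0.0227 in limma) that was under the fold threshold. *Lamp1* measured 11.94, 11.85 and 11.77 against 11.70, 11.82 and 11.77, with overlapping arrays and a change of −0.09 (95% interval −0.28 to 0.10). *Scarb2*, which carries glucocerebrosidase to the lysosome, was at −0.02 (95% interval −0.28 to 0.23), and *Mcoln1*, a calcium channel gene, was also at −0.02 (95% interval −0.21 to 0.18). For these 3 genes the intervals do not reach a decrease of 0.5.

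*Tfeb* measured 7.61, 7.49 and 7.55 on the *ob/ob* arrays and 6.85, 7.20 and 7.17 on the *ob/ob/Fsp27*-/- arrays, which do not overlap. Its change of −0.47 (SE 0.11, adjusted p = 0.0176 in limma) lay just under the fold threshold, and it passed without *ob/ob* array 2 (−0.50) and without array 2 (−0.54) or array 3 (−0.52) of the double-deficient mice. *Tfe3* measured 9.04, 8.80 and 8.88 against 8.54, 8.92 and 8.84, with overlapping arrays and a change of −0.14 (95% interval −0.43 to 0.15, adjusted p = 0.437 in limma).

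The other members of the family, which the list leaves out, were both lower. *Mitf* measured 9.75, 9.27 and 9.02 on the *ob/ob* arrays and 7.33, 7.38 and 7.45 on the *ob/ob/Fsp27*-/- arrays. *Tfec*, which is known mainly from macrophages and osteoclasts, measured 8.63, 8.10 and 7.83 against 6.02, 6.11 and 5.52. The arrays were apart in both genes, with changes of −1.96 (95% interval −2.38 to −1.55, adjusted p = 0.000332 in limma) and −2.30 (95% interval −2.86 to −1.75, adjusted p = 0.000529 in limma). The *ob/ob/Fsp27*-/- mean of *Tfec*, 5.88, lay under the median of all values, 6.07, where an array carries little signal over background, so the size of its change is uncertain. The interval of *Tfeb* ran from −0.74 to −0.21, and differences between the changes of the 4 factors were not tested.

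Genes with the E-box were found both among the lower genes and among those not called. Of the 9 genes with CACGTG, 4 were lower (*Gla*, *Glb1*, *Cln3* and *Naglu*) and 5 were not called (*Sgsh*, *Gaa*, *Arsa*, *Lamp1* and *Mcoln1*), and their median change was −0.33. Of the 25 genes with a promoter entry and no CACGTG, 17 were lower and *Smpd1* was higher, with a median of −0.71. *Lamp1* and *Mcoln1*, with 4 and 2 copies in the sequences given for them, had changes near 0, and *Gla*, with 2 copies, had the largest. These counts are small and were not tested.

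**Figure D3:**
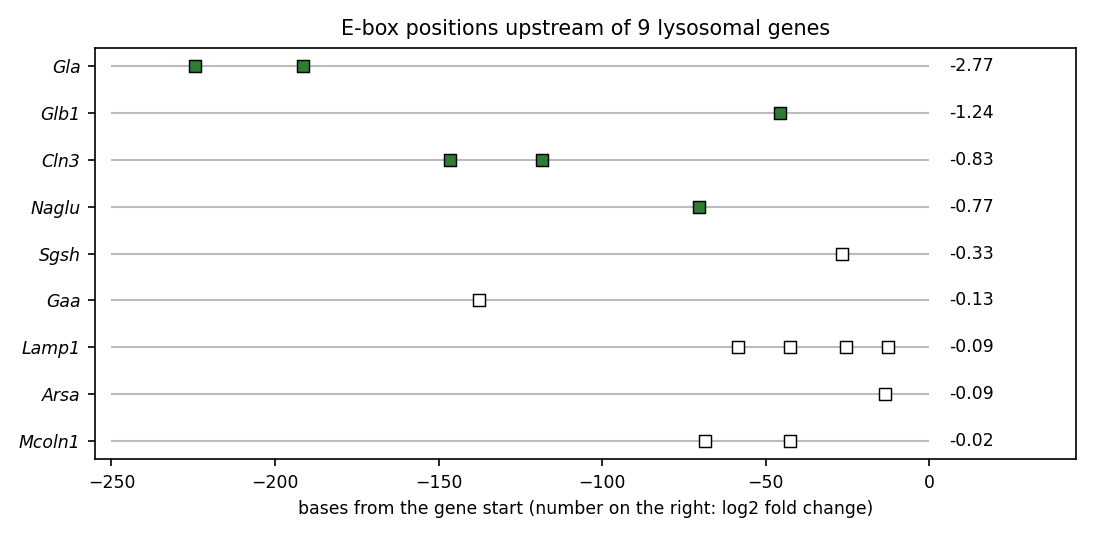
Position of each CACGTG in the 250 bases before the start of 9 lysosomal genes, in bases, with filled squares for genes called lower and open squares for genes not called. Numbers at the right are log2 fold changes, from −2.77 for *Gla* with 2 copies to −0.02 for *Mcoln1* with 2 copies.

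Other genes of the lysosome were counted in lists written from general knowledge, but with earlier results of these data known. Of 18 lysosomal proteases, 14 were lower (77.8%, against 10.8% of all genes), with a median change of −0.85. None was higher in limma, against 9.58% of all genes (0 higher at an unadjusted p under 0.05, against 20.9%). The osteoclast and macrophage cathepsin *Ctsk* was at −3.90, *Ctss* (cathepsin S, of antigen-presenting cells) at −3.27 and *Lgmn* (asparaginyl endopeptidase) at −2.18. Of 17 proton pump genes, 8 were lower (47.1%) and 1 was higher (5.88%, under the share of all genes). *Atp6v0d2*, a subunit isoform of macrophages and osteoclasts, was at −4.94, *Tcirg1* (an a-subunit isoform) at −2.32 and *Atp6ap2* (an accessory subunit) at −1.71, beside a median of −0.37 for the list. The gene that was higher, *Atp6v0a2* (0.52), was named after its value was seen, and it was not called without array 3 of either genotype.

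Of 23 further hydrolases and related enzymes, 14 were lower (60.9%, against 10.8% of all genes). *Pld3* (−1.97), the lysozyme gene *Lyz2* (−1.82) and the acid nuclease gene *Dnase2a* (−1.74) led them. In that list 1 was higher (4.35%, against 9.58% of all genes), *Plbd1* (1.24, a phospholipase B-like protein). Of 30 further membrane proteins, 14 were lower (46.7%), led by *Slc15a3* (−2.90), *Cd68* (−2.68) and *Laptm5* (−2.27). The 3 that were higher were *Laptm4b* (0.82), *Abcb9* (0.81) and *Mfsd8* (0.77). Their share, 10%, was near the 9.58% of all genes. The higher genes of these lists were named after their values were seen. *Cd68* and *Laptm5* are expressed mostly in macrophages and other blood cells.

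Genes that deliver enzymes to the lysosome or sense nutrients at its surface had list medians of −0.18 and 0.01, beside 0.06 over all genes. In the sorting list of 18 genes, 4 were lower (22.2%, against 10.8% of all genes), and 14 had changes below 0. The arrays did not overlap in 11 that were lower, against 20.7% of all genes. Among the 4 were *Igf2r* (−1.20, the larger mannose 6-phosphate receptor), *Nagpa* (−0.67, which uncovers the mannose 6-phosphate signal) and *Vps26a* (−0.66, a retromer subunit). *Sort1*, a sorting receptor named after its value was seen, was higher at 0.57. Without *ob/ob* array 1 the counts were 2 lower and 0 higher, and without *ob/ob/Fsp27*-/- array 2 there were 2 lower. Of 16 genes in the list of *Mitf*, *Tfec* and nutrient sensing, 4 were lower (25%), *Fnip2* (−1.66) and *Rragd* (−0.76) beside *Mitf* and *Tfec*. The 2 that were higher (12.5%, against 9.58% of all genes) were *Mtor* (0.66) and *Lamtor1* (0.55). Without *ob/ob* array 1 or array 3 of the double-deficient mice, 1 was called higher. *Rragd* and the 2 higher genes were named after their values were seen.

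Autophagy genes, whose products bring cargo to the lysosome, were called higher where they were called. Of 29 measured, 6 were higher (20.7%, against 9.58% of all genes) and none was lower in limma. At an unadjusted p under 0.05 in limma, 9 were higher, against 20.9% of all genes, and 5 were lower, against 19.2%. The median change was 0.13, beside 0.06 over all genes. *Map1lc3a*, an LC3 gene, measured 7.63, 8.22 and 8.44 on the *ob/ob* arrays and 9.31, 9.80 and 9.78 on the *ob/ob/Fsp27*-/- arrays. The mitophagy receptor gene *Bnip3* measured 10.28, 10.62 and 10.39 against 11.62, 11.61 and 11.67. Both had arrays apart, with changes of 1.53 (SE 0.23, adjusted p = 0.00266 in limma) and 1.20 (SE 0.10, adjusted p = 0.000268 in limma), and *Wipi2*, which acts in autophagosome formation, was higher by 0.85. Without *ob/ob* array 3, 1 gene of the list was called lower.

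**Figure D4:**
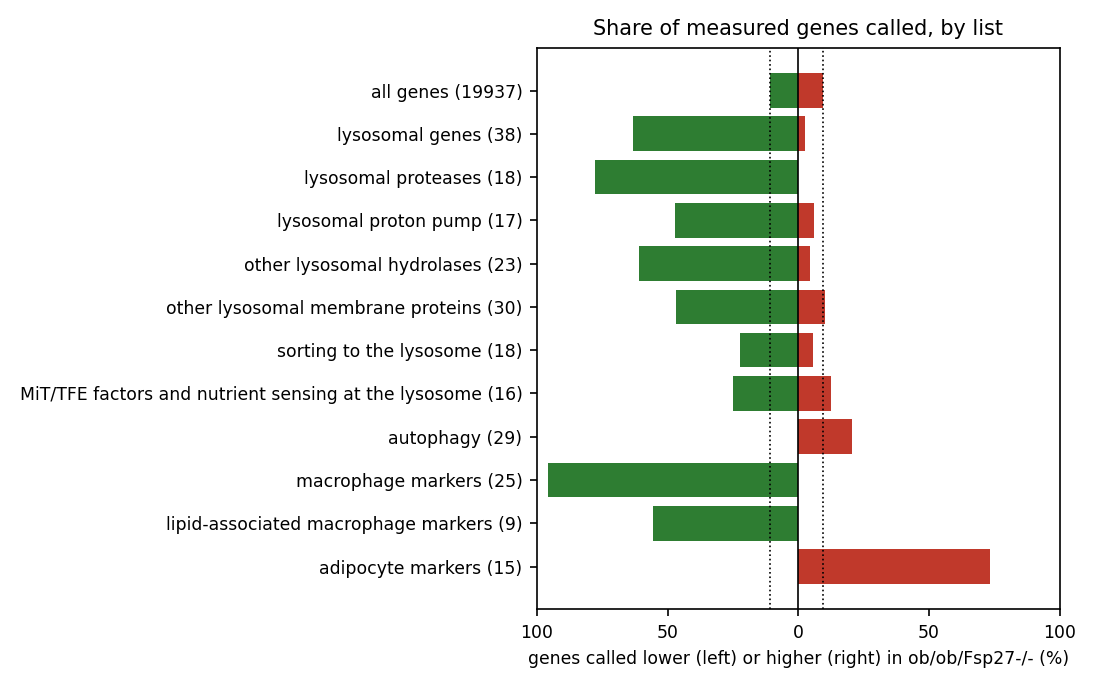
Percent of measured genes called lower (left) and higher (right) in *ob/ob/Fsp27*-/- mice in each list, with the number measured in brackets and dotted lines at 10.8% and 9.58%, the shares of all genes. The lists of lysosomal genes and proteases lie mostly to the left, and autophagy genes and adipocyte markers lie to the right.

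Markers of some cell types were mostly lower, as the lysosomal genes were, and those of others were mostly higher. In bulk tissue fewer cells of a type and less RNA per cell cannot be told apart. Lower values were called for 24 of 25 macrophage markers (96%, against 10.8% of all genes). Higher values were called for none in limma, against 9.58% of all genes (0 higher at an unadjusted p under 0.05, against 20.9%). *Itgax* (−3.61), *Cd84* (−3.60) and *Itgam* (−3.30) were in the lead, and only *Cd163* (−0.23) was not called. The median value of the macrophage markers was 10.62, 10.24 and 10.11 on the *ob/ob* arrays and 7.66, 7.83 and 7.45 on the *ob/ob/Fsp27*-/- arrays, against 6.07 for all values. On the *ob/ob/Fsp27*-/- arrays 3 or 4 of the 25 were under the median of the array. Of 9 markers of lipid-associated macrophages, 5 were lower (55.6%, against 10.8% of all genes), led by *Mmp12* (−5.49), *Gpnmb* (−4.33) and *Lgals3* (−2.64). The 4 not called were *Cd36* (−0.12), *Plin2* (−0.07), *Lpl* (0.07) and *Fabp5* (0.39), the last with separate arrays that were higher. Without array 2 of the double-deficient mice, 1 marker of this list was higher.

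Of 15 adipocyte markers, 11 were higher (73.3%, against 9.58% of all genes). None was lower in limma, against 10.8% of all genes (0 lower at an unadjusted p under 0.05, against 19.2%). Among the higher ones were *Acvr1c* (2.35), *Slc2a4* (2.10) and *Retn* (1.47). The 2 with changes below 0, *Lep* (−0.22) and *Cidec* (−0.29, the gene of Fsp27), were not called. Their medians were 10.84, 11.30 and 11.70 on the *ob/ob* arrays and 12.08, 12.14 and 12.13 on the *ob/ob/Fsp27*-/- arrays. Leaving out *ob/ob* array 2, or array 2 or 3 of the double-deficient mice, left 6 higher. Among other cells, 6 of 10 endothelial markers were higher (60%) and 5 of 9 stromal progenitor markers were lower (55.6%), against 9.58% and 10.8% of all genes. None of 9 T-cell markers was called in limma. With an unadjusted p under 0.05 in limma, 1 was higher and 1 lower, against 20.9% and 19.2% of all genes. Without *ob/ob* array 3, 2 T-cell markers were lower. Of 7 B-cell markers, 1 was lower (14.3%, against 10.8% of all genes), *Cd22* (−0.56), named after its value was seen. None was higher in limma, against 9.58% of all genes. With an unadjusted p under 0.05 in limma, 4 were higher and 1 lower, against 20.9% and 19.2% of all genes. The 6 markers other than *Cd22* had changes above 0, and the median of the list was 0.39. *Cd22* was not called without *ob/ob* array 1 or 3 or without array 1 or 2 of the double-deficient mice, and without array 1 of the double-deficient mice 4 B-cell markers were higher. The mean value lay under the median of all values for 8 of the T-cell markers and 5 of the B-cell markers, which limits what could be called. The part of these cell types in the lysosomal values was not tested.

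The medians of the 38 lysosomal genes were 9.83, 9.88 and 9.69 on the *ob/ob* arrays and 8.84, 8.94 and 8.91 on the *ob/ob/Fsp27*-/- arrays. The *ob/ob* arrays were not alike in this respect. *ob/ob* array 1 was the highest of its group for 16 of the 24 genes that were lower, and array 3 was the lowest for 20 of them. Array 1 also had the highest median of macrophage markers and the lowest of adipocyte markers, and array 3 the reverse. The *ob/ob/Fsp27*-/- arrays took turns, with 10, 8 and 6 of the 24 genes highest on arrays 1, 2 and 3. Within a genotype the median SD over the 38 genes was 0.11 in each group, and 24 genes were lower without *ob/ob* array 1 and 24 without *ob/ob* array 3.

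**Figure D5:**
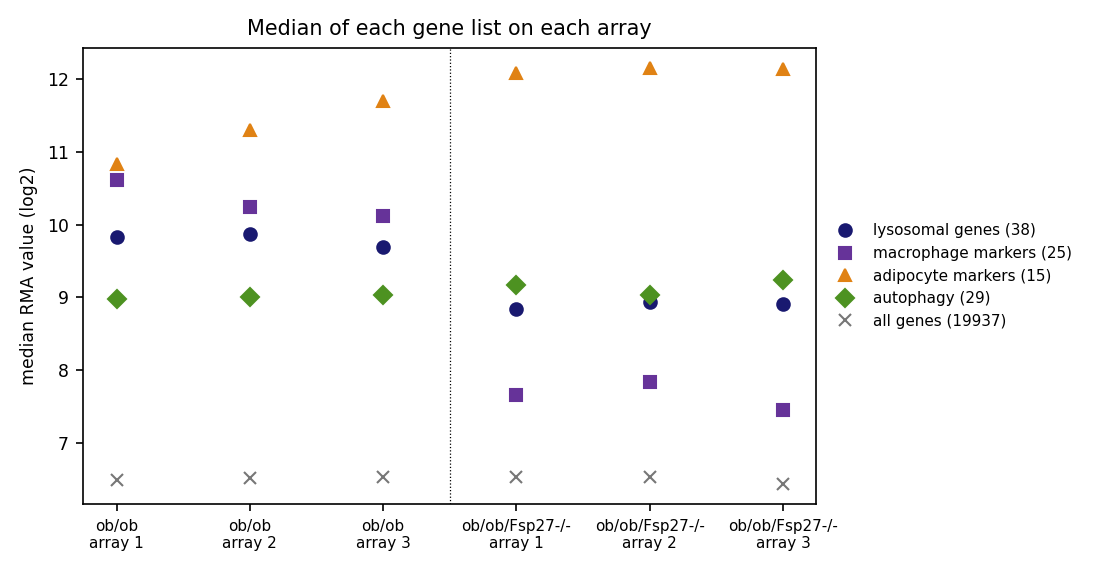
Median RMA log2 value of 5 sets of genes on each array, with the number of genes in brackets. The lysosomal genes and macrophage markers are lower on all 3 *ob/ob/Fsp27*-/- arrays than on any *ob/ob* array, the adipocyte markers are higher, and the median of all genes stays between 6.45 and 6.54.

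Among 12 reference genes *Gusb* was the only one called with all 6 arrays. The 11 others had changes between −0.45 and 0.45 with a median of −0.20 and 0 calls in limma. With an unadjusted p under 0.05 in limma, 1 was higher and 5 were lower, against 20.9% and 19.2% of all genes. Of the 11 others, 5 had an adjusted p under 0.05 in limma and missed the fold threshold. Without *ob/ob* array 1, 1 reference gene was higher, and without *ob/ob* array 3 or array 1 of the double-deficient mice, 2 were lower. Centring the arrays on these reference genes moved the median of all genes from 0.06 to 0.35 with *Gusb* and to 0.18 without it. The number of lysosomal genes called lower was then 18 and 21, and the share of higher genes among all called genes went from 47.0% to 79.3% and 61.4%. *Gla*, *Lipa* and *Gusb* were lower under each. Of the 36 lysosomal genes with values below 0, 8 that were not called moved above 0 with *Gusb* in the centring and 4 without it.

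As a check of the labels, *Cidec* was read on each array. It measured 11.49, 11.78 and 11.98 on the *ob/ob* arrays and 11.34, 11.51 and 11.53 on the *ob/ob/Fsp27*-/- arrays, which overlap, and the change of −0.29 was not called (95% interval −0.61 to 0.03, adjusted p = 0.157 in limma). Where its probes lie relative to the deleted part of the gene is not known here, so the value does not check the labels in either direction. Over the 22961 probesets with at least 1 symbol the arrays correlated at 0.988 to 0.994 within genotypes and at 0.943 to 0.965 between them.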

How the data were processed

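GWAT RNA of 3 *ob/ob* and 3 *ob/ob/Fsp27*-/- pools was amplified, labelled with biotin and hybridised to 1-colour arrays. The authors deposited log2 values from the Robust Multi-array Average (RMA), which corrects background, normalizes arrays by quantiles and summarises probes. Versions of RMA and limma for that step were not stated in the labels or methods. The study's filter on detection above background needs single probes and was not repeated.

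Groups were taken from the labels. Symbols came from the platform annotation and were updated by Entrez number with a RefSeq gene table (GRCm38.p6). Of 34760 probesets, 22961 with at least 1 symbol were fitted with limma 3.58.1 in R 4.3.3 (lmFit and eBayes, no covariates, Benjamini-Hochberg over all of them), and 19937 genes were counted by their probeset with 1 symbol and the highest mean. The fit was tested on simulated data. Calls needed an adjusted p under 0.05 with a change of 0.5 or more, up or down, on the log2 scale. Arrays have no read depth, and 3 per genotype limit the precision: standard errors of the 38 genes ran from 0.072 to 0.22. The p-values set the difference between genotypes against the spread between arrays as limma estimates it, not against the spread between mice.

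The members and lists were chosen with earlier results of these data known. Array values are given for the 4 largest changes of each role group and for a gene called higher. Per other list, up to 3 called genes were to be named, the largest changes first. Further called genes in those lists were named after their values were seen. Listed genes with no probeset of 1 symbol were not analysed here. Motifs were counted in the RefSeq promoter table over 250 bases before each start. Alternatives, 20 in all, covered filters, centring, loess, other limma options, fold thresholds, averaging of probesets and leaving out each array. Figures used Python 3.11.15 and matplotlib 3.10.9.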

Additional observations from a re-analysis of the deposited data

How the results depend on the processing

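No paired analysis was possible because the labels give the groups no shared replicate numbers. Filters at the 30th percentile or the median, all probesets, array weights, array medians, robust eBayes, limma-trend, cyclic loess and the mean of a gene's probesets kept the calls of all 38 lysosomal genes. Against 1910 genes called higher and 2158 genes called lower, centring on the reference genes gave 5032 and 1312, treat (limma's test against a minimum fold) 566 and 939, a log2 fold threshold of 1 gave 652 and 955, and no fold threshold gave 2936 higher. With 1 array left out, 1618 to 2121 genes were higher and 1960 to 2345 lower. Against 24 lower lysosomal genes, treat gave 13 and a threshold of 1 gave 11, with 23 to 25 when 1 array was left out. Against 1 higher, the centring gave 2 (*Gm2a* added), treat and a threshold of 1 gave 0, and leaving out arrays gave 0 to 1. The median of −0.74 was −0.45 with this centring, −0.62 without *Gusb* in it, and −0.79 to −0.72 with 1 array left out. Under these alternatives only genes that were not called changed sign. Under the centring *Arsa* was at 0.21, *Gaa* 0.16, *Neu1* 0.022, *Aga* 0.15, *Lamp1* 0.20, *Scarb2* 0.27, *Mcoln1* 0.28 and *Tfe3* 0.15. Without *Gusb* in it, *Arsa* was at 0.041, *Lamp1* 0.037, *Scarb2* 0.10 and *Mcoln1* 0.11. With 1 array left out, *Scarb2* ran from −0.13 to 0.066 and *Mcoln1* from −0.040 to 0.027. The centring lost *Naglu*, *Psap*, *Fuca1*, *Tpp1*, *Ppt1* and *Ctns*, and without *Gusb* it lost *Fuca1*, *Ppt1* and *Ctns*. Small changes are limited by 3 arrays per genotype.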
